A study of Mus musculus with 22 samples.

Results

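The transcripts described here are 34 genes of cholesterol synthesis, of its control by SREBP and of the LXR response, out of 22346 genes tested. The rule took known genes of the pathway by name and used no measured value, and they were matched to the arrays through the RefSeq accession of each probe. All 34 had a probe that was well above background on at least 3 arrays, and 11 had more than 1 such probe. The genes were grouped by role into 7 enzymes of the mevalonate steps, 11 enzymes of the squalene and sterol steps, 5 SREBP factors and regulators, 4 genes of fatty acid synthesis and sterol carriage, 5 LXR receptors and targets, and 2 enzymes that make an oxysterol or cholesterol esters.

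The measurements came from macrophages grown out of mouse bone marrow with the growth factor M-CSF (BMDM), of 3 genotypes in the strain C57BL/6 (C57BL/6J for the knockouts in the study's methods). The mice were wild type (wt), lacked the stress-activated protein kinase MK2 (MK2-/-) or lacked MK2 and its relative MK3 (MK2/3-/-). The deletions were carried by the whole animal, the mice were labelled male, and their age was 10 to 14 weeks. Cells of each genotype stood for 360 min in medium or with 100 ng/ml lipopolysaccharide (LPS), a component of bacterial walls that activates macrophages, and the study asked how the kinases shape the response to it. Arrays were available for 4 wt cultures in medium and 3 with LPS, for 4 and 4 MK2-/- cultures, and for 3 and 4 MK2/3-/- cultures. The groups follow the sample titles, whereas the series' design text counts 1 sample more and gives MK2-/- in medium 3 replicates.

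Cells make cholesterol from acetyl-CoA through mevalonate, isoprenoids, squalene and a series of sterols. When sterols in the endoplasmic reticulum are scarce, SCAP carries the SREBP factors to the Golgi, where they are cut and freed to switch on the enzymes, while INSIG proteins hold them back when sterols are plentiful. The LXR receptors sense oxysterols and switch on exporters of cholesterol, so that both systems keep the sterol content of a macrophage in balance.

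Values below are log2 signals, quantile normalised over the 22 arrays, in the order of the replicate numbers. Changes are log2 differences ± standard error (SE) from a limma model of all arrays, and calls were made where the p adjusted over all genes tested (Benjamini-Hochberg) was below 0.05. The arrays had 61.1% to 78.0% of their probes well above background and a median processed signal of 32.7 to 108. Replicate 3 of MK2-/- with LPS had 2927 spots marked as outliers, where the other arrays had 115 to 261. It was the lowest array of its group for 10028 of 21293 genes without a missing value. Of 7 macrophage markers 6 were on the arrays, of which 5 were well above background on every array and Itgam on all but 1. Csf1r, the M-CSF receptor, lay between 17.16 and 18.50. Markers of other cells were also seen. The fibroblast gene Col1a1 had means of 12.41 in wt, 9.51 in MK2-/- and 8.86 in MK2/3-/- BMDM in medium and of 12.55, 9.12 and 9.20 with LPS, with single arrays from 4.89 to 14.99. The means of Col1a2 were likewise lower in the knockouts, but the other fibroblast markers listed, Dcn and Lum, did not follow. Dcn had means of 5.34, 4.56 and 6.17 in medium and of 6.32, 8.01 and 8.17 with LPS, in the same order of genotypes. Lum had means of 4.23, 4.83 and 3.86 in medium and of 6.93, 7.65 and 6.64 with LPS. The part of these markers in the comparisons of genotypes was not tested. In such bulk samples fewer cells of a type and less RNA per cell cannot be told apart.

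Some arrays stood apart from their labels or their groups. Both MK2-/- arrays with replicate number 3 had the Y-linked gene Ddx3y not well above background (2.01 in medium and 1.99 with LPS), where the other 20 arrays had 10.09 to 11.26, against the label male. Replicate 4 of wt in medium had Il6, an LPS-induced cytokine, at 13.36, where the other wt arrays in medium had 6.41 to 10.02. In medium, Mapkapk2, the gene of MK2, was between 10.77 and 12.39 in wt, 8.70 and 9.01 in MK2-/- and 8.34 and 8.50 in MK2/3-/- BMDM. With LPS it was between 14.28 and 15.33 in wt, 11.25 and 11.95 in MK2-/- and 10.86 and 11.22 in MK2/3-/- BMDM, so that the knockouts with LPS lay in the range of wt in medium. Mapkapk3 was between 10.94 and 11.40 in MK2/3-/- BMDM in medium and between 12.39 and 13.42 in the other genotypes, and with LPS between 7.65 and 8.55 against 11.92 and 12.57. Whether these probes lie in the deleted parts was not tested. All arrays of a genotype shared a slide, so genotype and slide cannot be told apart in direct comparisons.

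After LPS, cholesterol synthesis moved in both directions. Dhcr7, Ebp, Mvk, Mvd and Lss fell in all 3 genotypes and Idi1 rose in all 3, so that consecutive steps of one route changed in opposite directions. Abcg1, Soat1 and Scap also fell in all 3 genotypes (the calls of Scap, and that of Abcg1 in MK2/3-/- BMDM, were lost with 75th percentile scaling), and Ch25h rose by 6.08 to 6.38 on the log2 scale. In wt BMDM 14 of the 34 genes were called, 2 higher and 12 lower, where 42.2% of all genes tested were called. In MK2-/- BMDM 16 were called, 4 higher and 12 lower, beside 44.7% of all genes. In MK2/3-/- BMDM 18 were called, 3 higher and 15 lower, beside 48.3% of all genes. These shares were near those of all genes, so the number of calls was not particular to the pathway. Over all genes 4165 were called higher and 5261 lower in wt. In MK2-/- BMDM the counts were 3922 and 6070, and in MK2/3-/- BMDM 4535 and 6248. Falls were thus the more frequent calls over all genes too, though by less than among the 34. Whether the split by direction differs was not tested. The median change of the 34 genes was -0.53 in wt, -0.45 in MK2-/- and -0.66 in MK2/3-/- BMDM, where all genes tested had medians of -0.04, -0.01 and 0.02. With each array scaled to its 75th percentile the median of all genes was at 0.30, 0.28 and 0.29, and the members called were 5 higher and 12 lower, 4 and 9, and 6 and 11. Of the 34 genes, 10 were called in all 3 genotypes, 6 in 2, 6 in 1 and 12 in none, and 28 had a change of the same sign in all 3. These counts were not made over all genes, so they do not show whether the pathway differs from other genes in this. Without replicate 4 of wt in medium the wt calls were 2 higher and 11 lower. Without both replicate 3 arrays the MK2-/- calls were 3 and 10, and without both replicate 2 arrays the MK2/3-/- calls were 4 and 14.

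**Figure D1:**
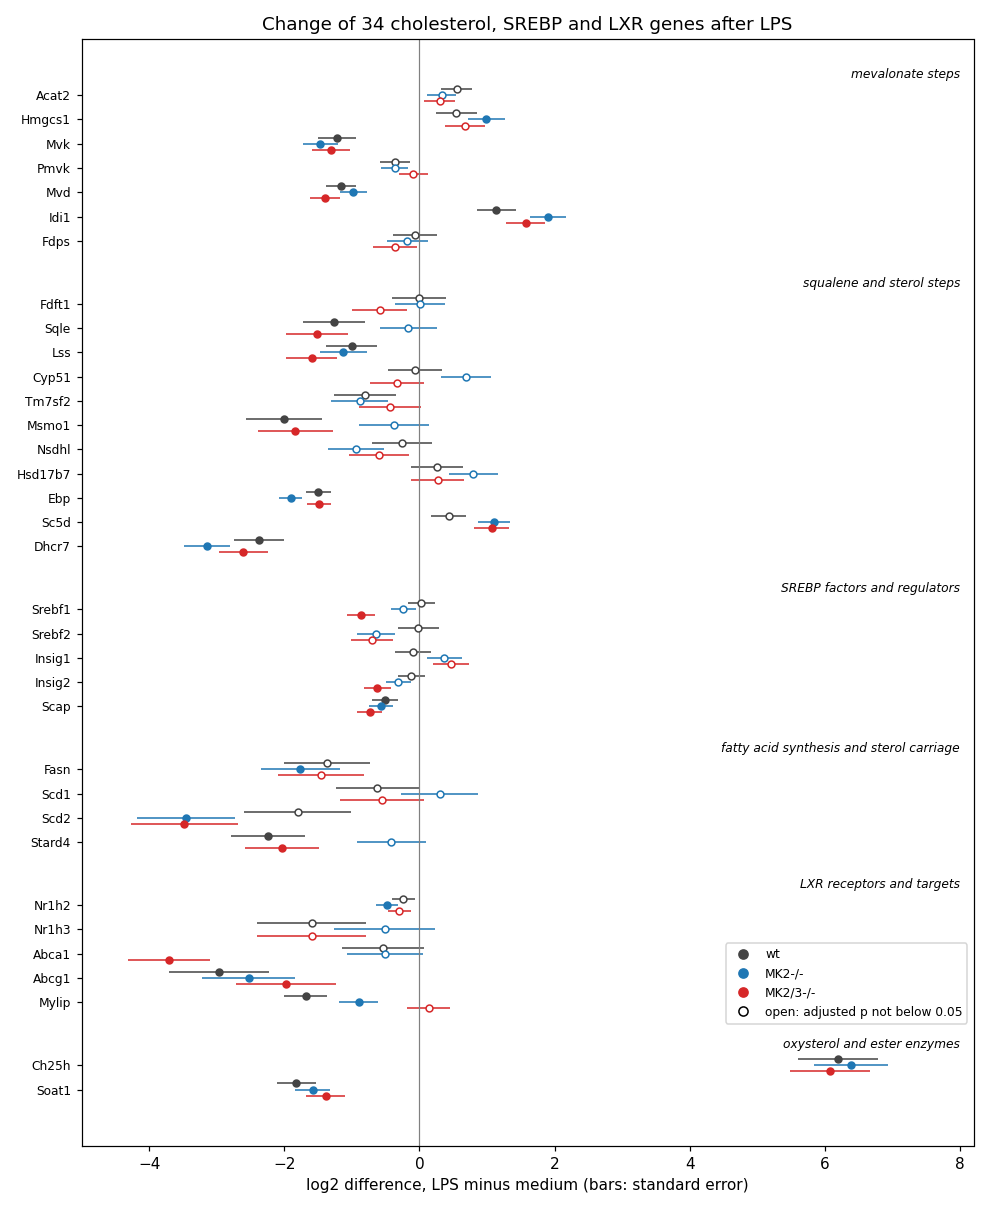
Log2 difference between LPS and medium (horizontal axis) for each of the 34 genes (rows, grouped by role) in wt, MK2-/- and MK2/3-/- BMDM. Points are limma estimates with their standard error, and filled points have an adjusted p below 0.05. Ch25h lies near 6 in each genotype, and most other filled points lie below 0.

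The mevalonate enzymes split into called falls, called rises and no call. Of the 7, 1 was called higher and 2 lower in wt, 2 and 2 in MK2-/-, and 1 and 2 in MK2/3-/- BMDM. All genes had 42.2%, 44.7% and 48.3% called in the same order, so these counts do not set the group apart. Mvk, mevalonate kinase (NM_023556), phosphorylates mevalonate. Its signal in wt BMDM was 12.16, 12.05, 12.59 and 12.28 in medium and 11.42, 10.82 and 10.92 with LPS. In MK2-/- BMDM it was 11.65, 11.98, 12.22 and 11.74 in medium and 10.21, 10.19, 10.77 and 10.55 with LPS. In MK2/3-/- BMDM it was 11.46, 11.34 and 11.78 in medium and 9.91, 9.45, 10.88 and 10.63 with LPS. Every LPS array lay below every medium array of its genotype. The changes were -1.22 ± 0.28 in wt (adjusted p = 0.00177), -1.47 ± 0.26 in MK2-/- (0.000117) and -1.31 ± 0.28 in MK2/3-/- BMDM (0.000733). Another probe of Mvk was also called lower in all 3 genotypes, by 0.88, 2.00 and 2.12 on the log2 scale.

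Mvd (NM_138656) decarboxylates mevalonate diphosphate to isopentenyl diphosphate, the unit from which isoprenoids are built. In wt BMDM its arrays gave 9.70, 9.62, 9.83 and 9.37 in medium and 8.77, 8.22 and 8.43 with LPS. MK2-/- BMDM had 9.99, 10.17, 9.85 and 9.79 in medium and 9.28, 8.79, 8.99 and 8.83 with LPS. MK2/3-/- BMDM had 9.65, 9.02 and 9.38 in medium and 7.84, 7.42, 8.37 and 8.21 with LPS. Here too no LPS array reached a medium array of the same genotype. Mvd fell 2.23-fold in wt (adjusted p = 0.000328), 1.97-fold in MK2-/- (0.000598) and 2.62-fold in MK2/3-/- BMDM (3.32e-05).

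Idi1 (NM_145360), the isomerase that converts isopentenyl diphosphate into its partner dimethylallyl diphosphate, went the other way. The wt arrays read 11.04, 11.58, 11.57 and 10.90 in medium and 12.13, 12.59 and 12.51 with LPS. The MK2-/- arrays read 11.03, 10.48, 11.11 and 11.67 in medium and 13.01, 12.78, 13.18 and 12.91 with LPS. The MK2/3-/- arrays read 11.39, 10.77 and 11.32 in medium and 13.08, 12.02, 12.73 and 13.09 with LPS. LPS and medium did not overlap in any genotype, and the LPS arrays were the higher ones. The rise was 1.14 ± 0.29 in wt (adjusted p = 0.00346), 1.90 ± 0.27 in MK2-/- (7.33e-06) and 1.57 ± 0.29 in MK2/3-/- BMDM (0.000143). The rise in MK2-/- was not shown to differ from that in wt (0.76 ± 0.39, adjusted p = 0.688).

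Hmgcs1, which condenses acetyl-CoA units ahead of mevalonate, changed by 0.55 ± 0.30 in wt without a call (adjusted p = 0.154), was called higher in MK2-/- BMDM (0.99 ± 0.28, adjusted p = 0.00623) and changed by 0.67 ± 0.30 in MK2/3-/- BMDM (0.0710). Without both MK2-/- arrays of replicate 3 the call in MK2-/- BMDM was lost. Acat2, in mice the symbol of the thiolase that joins acetyl-CoA units, changed by 0.55, 0.33 and 0.30 with no call. Pmvk, phosphomevalonate kinase, and Fdps, farnesyl diphosphate synthase, were not called in any genotype, and their changes lay between -0.37 and -0.07.

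Promoter sequences were read from RefSeq (GRCm38.p6), as windows from 250 bases before to 50 bases after the start of transcription. They were found for 27 of the 34 genes, with 36 windows in all. Abcg1, Fdft1, Fdps, Scd1, Scd2, Sqle and Stard4 had no entry. The letters CCAAT, the core of the site bound by NF-Y, a factor known to act beside SREBP on these enzymes, were found on either strand in 9 of 9 genes of the squalene and sterol steps, 5 of 6 of the mevalonate steps, 4 of 5 SREBP genes and 1 of 4 LXR genes. Of all promoters listed, 37.4% held them, and 41.1% of all genes had a promoter with them. The sterol regulatory element TCACNCCAC was found in 1 of the 27 genes, Hmgcs1, and in 1.44% of all genes (1.24% of all promoters). The E-box CACGTG, which reads the same on both strands, was found in 6 of the 27 genes and in 8.09% of all genes (7.15% of all promoters). No member held the DR4 LXR element, 2 copies of AGGTCA spaced by 4 bases, which 5 of 32851 promoters held. These are matches of letters in short windows, and binding was not measured.

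The following stretches, on the strand of each gene, show the element of Hmgcs1 and the CCAAT letters nearest to the start that have 10 bases on each side before it, of the enzymes given array by array, so that the genes that fell and the 1 that rose can be compared. Capitals mark the motif, and ATTGG is CCAAT on the other strand.
Hmgcs1, sterol regulatory element, chr13:119690204-119690232, plus strand, 137 to 129 bases before the start: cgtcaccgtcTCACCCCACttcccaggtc
Idi1, chr13:8885551-8885575, plus strand, 45 to 41 bases before the start: cctccagctgATTGGcgagcccggg
Mvk, chr5:114444209-114444233, plus strand, 50 to 46 bases before the start: aatgtttgacCCAATctgtaaagga
Mvd, chr8:122443435-122443459, minus strand, 27 to 23 bases before the start: ggccagcgggCCAATcatatggcag
Msmo1, chr8:64733619-64733643, minus strand, 55 to 51 bases before the start: gtggggcggaCCAATtacgacaggc
Ebp, chrX:8193553-8193577, minus strand, 55 to 51 bases before the start: ccctgtactgATTGGttcgtcagat
Dhcr7, chr7:143830155-143830179, plus strand, 49 to 45 bases before the start: tccacttccgATTGGtcgtctgtga
The motif was present in Idi1, which rose, and in Mvk, Mvd, Ebp and Dhcr7, which fell. Idi1 and Mvk held a further match closer to the start (14 to 10 bases before it) that is not shown because its flank runs past the start.

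Among the 11 enzymes from squalene to cholesterol, 5 were called lower in wt and none higher. In MK2-/- BMDM 3 were called lower and 1 higher, and in MK2/3-/- BMDM 5 lower and 1 higher. The shares of all genes called were 42.2% in wt, 44.7% in MK2-/- and 48.3% in MK2/3-/- BMDM. Dhcr7 (NM_007856), a reductase of the last steps, had the largest fall of the 18 synthesis enzymes in each genotype. In wt BMDM it read 8.36, 8.57, 8.84 and 8.62 in medium and 5.36, 6.41 and 6.89 with LPS. MK2-/- cells had 8.34, 8.15, 8.75 and 8.71 in medium and 5.02, 5.06, 5.26 and 6.04 with LPS. MK2/3-/- cells had 8.49, 8.12 and 8.56 in medium and 5.17, 5.18, 6.60 and 6.19 with LPS. The groups were far apart, with the lowest medium array at 8.12 and the highest LPS array at 6.89. Dhcr7 fell 5.20-fold in wt (adjusted p = 3.50e-05), 8.84-fold in MK2-/- (2.90e-07) and 6.09-fold in MK2/3-/- BMDM (7.88e-06).

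Ebp (NM_007898), the isomerase that moves a double bond within the sterol ring, had a small spread. Its wt signals were 13.89, 14.58, 14.55 and 14.45 in medium and 13.02, 12.84 and 12.75 with LPS. Its MK2-/- signals were 14.80, 14.99, 14.58 and 14.62 in medium and 12.82, 12.71, 12.99 and 12.85 with LPS. Its MK2/3-/- signals were 14.46, 14.43 and 14.32 in medium and 12.93, 12.54, 13.07 and 13.12 with LPS. No LPS array was above 13.12 and no medium array below 13.89. The falls were 1.50 (SE 0.18, adjusted p = 2.35e-06), 1.90 (0.17, 2.13e-08) and 1.49 (0.18, 1.42e-06) on the log2 scale.

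Msmo1 (NM_025436), a monooxygenase that starts the removal of methyl groups from the sterol, differed between arrays of a group. In wt BMDM the arrays gave 13.42, 13.71, 13.66 and 13.00 in medium and 9.61, 12.28 and 12.44 with LPS, so that the first LPS array was far below the others. For MK2-/- BMDM the values were 13.38, 12.99, 13.07 and 13.88 in medium and 12.63, 12.66, 13.20 and 13.31 with LPS, which overlapped. For MK2/3-/- BMDM the values were 13.87, 13.09 and 13.88 in medium and 12.48, 10.85, 12.73 and 11.01 with LPS, which did not. The change was called in wt (-2.01 ± 0.56, adjusted p = 0.00678) and in MK2/3-/- BMDM (-1.84 ± 0.56, 0.00989), and not in MK2-/- BMDM (-0.38 ± 0.51, 0.596). The change in MK2-/- was not shown to differ from that in wt (1.63 ± 0.76, adjusted p = 0.651). Without the first LPS array the call in wt was lost, and with 75th percentile scaling that in MK2/3-/- BMDM.

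Sqle, squalene epoxidase, had the same order of calls. It fell in wt by 1.27 (SE 0.46, adjusted p = 0.0314) and in MK2/3-/- BMDM by 1.52 (0.46, 0.00967), with a change of -0.17 ± 0.42 in MK2-/- BMDM (0.791), and the responses were not shown to differ (MK2-/- minus wt 1.10, adjusted p = 0.717). The wt call of Sqle was lost without replicate 1, 2 or 3 in medium or replicate 1 with LPS, and the MK2/3-/- call without replicate 3 in medium. Lss, which closes the ring to lanosterol, fell by 1.00 in wt (adjusted p = 0.0393), 1.12 in MK2-/- (0.0127) and 1.59 in MK2/3-/- BMDM (0.00164), and its wt call was lost without replicate 1, 2 or 3 in medium or replicate 2 or 3 with LPS. Sc5d, a desaturase near the end of the route, was called higher in MK2-/- (1.10 ± 0.24, adjusted p = 0.000825) and MK2/3-/- BMDM (1.07 ± 0.26, 0.00192) and changed by 0.43 ± 0.26 in wt (0.197). Fdft1, Cyp51, Tm7sf2, Nsdhl and Hsd17b7 were not called after LPS in any genotype, with changes from -0.94 for Nsdhl in MK2-/- to 0.80 for Hsd17b7 in MK2-/- BMDM. A dimmer probe of Hsd17b7 was called higher in MK2-/- BMDM (1.09, adjusted p = 0.0375 over all probes kept), and a dimmer probe of Nsdhl was called lower in MK2/3-/- BMDM (-1.93, 0.0139).

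**Figure D2:**
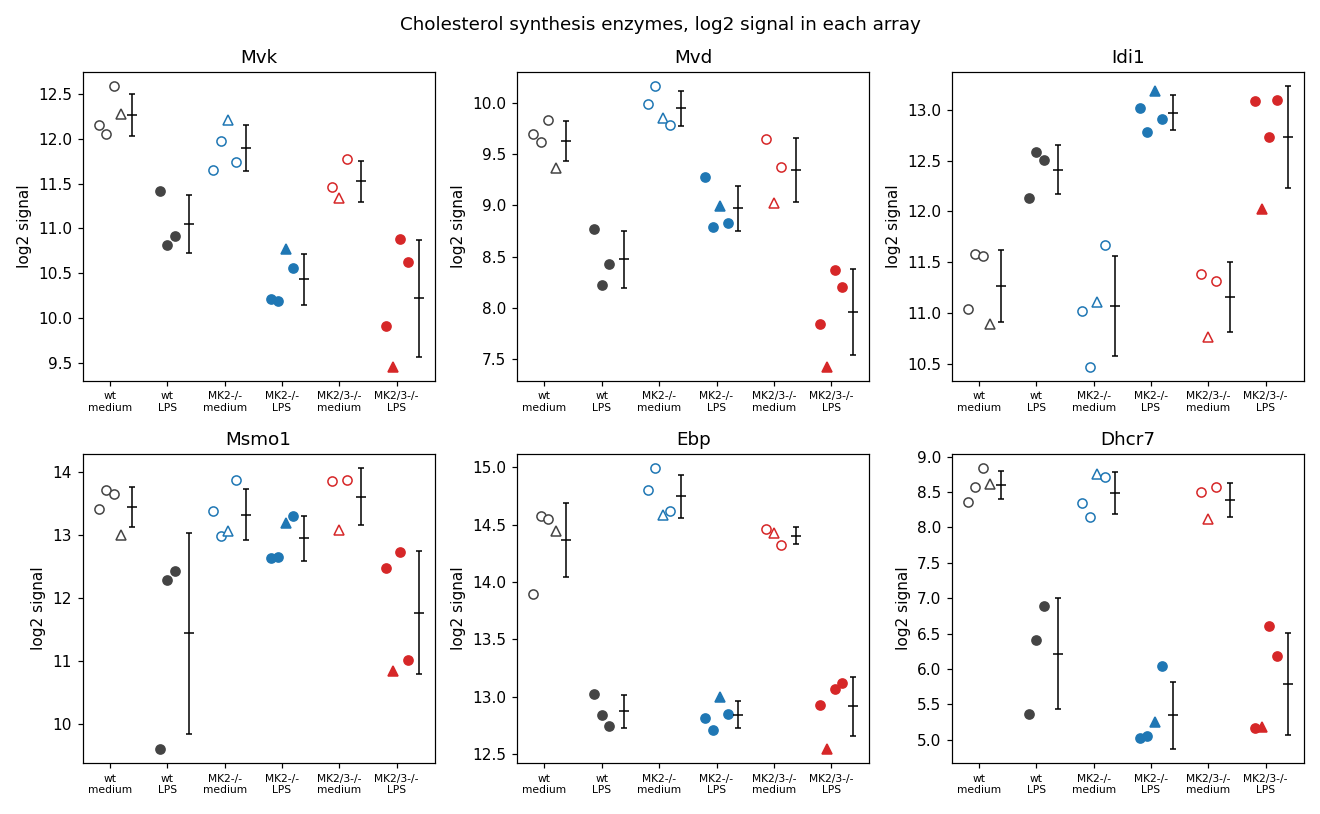
Log2 signal (vertical axes) of Mvk, Mvd, Idi1, Msmo1, Ebp and Dhcr7 in each array of the 6 groups (horizontal axes), with open symbols for medium and filled symbols for LPS. Triangles are the arrays that stood apart (wt medium 4, MK2-/- 3 and MK2/3-/- 2), and the black marks are the group mean and SD. For Dhcr7 all LPS arrays lie at or below 6.89 and all medium arrays at or above 8.12.

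Of the 5 SREBP genes 1 was called lower in wt, 1 in MK2-/- and 3 in MK2/3-/- BMDM, and none was called higher. Beside 42.2%, 44.7% and 48.3% of all genes, counts among so few genes show no trait of the group. Scap (NM_001001144), the escort of the SREBP factors, was called in all 3 genotypes. Its wt arrays gave 13.14, 13.02, 12.67 and 13.29 in medium and 12.67, 12.47 and 12.42 with LPS. MK2-/- arrays gave 12.92, 13.24, 13.21 and 12.99 in medium and 12.22, 12.68, 12.49 and 12.71 with LPS, and MK2/3-/- arrays gave 13.09, 13.15 and 12.87 in medium and 12.31, 11.90, 12.64 and 12.35 with LPS. The wt groups overlapped, where an LPS array stood at the level of the lowest medium array, and the knockout groups did not. Scap fell by 0.51 in wt (SE 0.19, adjusted p = 0.0362), 0.57 in MK2-/- (0.17, 0.0121) and 0.74 in MK2/3-/- BMDM (0.19, 0.00299), and with 75th percentile scaling none of these was called. The wt call was also lost without any 1 of 5 of the 7 wt arrays (medium 1, 2 and 4, LPS 2 and 3), and the MK2-/- call without replicate 1 with LPS.

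Srebf1 (NM_011480), whose products drive mainly fatty acid synthesis, overlapped between conditions in wt, with 7.02, 7.23, 7.23 and 6.72 in medium and 6.88, 7.15 and 7.19 with LPS. The MK2-/- cultures gave 6.75, 6.82, 6.46 and 6.72 in medium and 6.59, 6.71, 6.17 and 6.32 with LPS. The MK2/3-/- cultures gave 6.54, 6.44 and 6.57 in medium and 5.83, 5.80, 5.90 and 5.07 with LPS, where all LPS arrays were below all medium arrays. The change was 0.03 ± 0.20 in wt (adjusted p = 0.937), -0.24 ± 0.19 in MK2-/- (0.324) and -0.87 ± 0.20 in MK2/3-/- BMDM, which was called (0.00145), though not under 75th percentile scaling. The response in MK2/3-/- differed from that in wt by -0.89 ± 0.29 without passing the threshold (adjusted p = 0.163).

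Srebf2 (NM_033218), whose product drives cholesterol synthesis, was read by 2 probes that disagreed. The brighter probe gave 12.41, 12.97, 12.02 and 13.27 in wt in medium and 12.40, 12.70 and 12.86 with LPS. The same probe gave 12.24, 13.58, 13.17 and 13.32 in medium and 12.25, 12.14, 12.47 and 12.87 with LPS in MK2-/- and 13.76, 13.50 and 13.48 in medium and 12.94, 12.53, 13.16 and 12.89 with LPS in MK2/3-/- BMDM. It was not called in any genotype, with changes of -0.02 ± 0.31 (adjusted p = 0.976), -0.65 ± 0.28 (0.0716) and -0.70 ± 0.31 (0.0663). The dimmer probe, of the same accession, was called higher in all 3, by 1.08 in wt (adjusted p = 0.00515), 1.47 in MK2-/- (0.000142) and 1.09 in MK2/3-/- BMDM (0.00400). No direction is therefore given for Srebf2.

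Insig1 and Insig2 encode proteins that retain SCAP in the endoplasmic reticulum. Insig1 (NM_153526) gave 7.73, 8.03, 8.35 and 7.74 in wt in medium and 7.84, 8.05 and 7.71 with LPS. The MK2-/- arrays gave 7.72, 7.09, 7.56 and 8.18 in medium and 7.97, 7.97 and 8.08 in the 3 LPS arrays whose spot was not marked, and the MK2/3-/- arrays gave 7.32, 6.57 and 7.69 in medium and 7.57, 7.36, 7.88 and 7.81 with LPS. It was not called in any genotype (adjusted p from 0.162 to 0.804). Insig2 (NM_133748) gave 11.20, 11.25, 11.35 and 11.44 in medium and 11.22, 10.94 and 11.41 with LPS in wt, with overlap. It gave 11.16, 10.65, 11.15 and 11.37 in medium and 11.05, 10.81, 10.53 and 10.70 with LPS in MK2-/- BMDM, again with overlap. In MK2/3-/- BMDM it gave 11.25, 11.14 and 11.22 in medium and 10.67, 10.21, 10.48 and 10.96 with LPS, which were separate. The change in MK2/3-/- was -0.62 ± 0.20 and was called (adjusted p = 0.0127), although another probe was not (-0.45, 0.0956) and the call was lost without both MK2/3-/- arrays of replicate 2.

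Among the genes of fatty acid synthesis and sterol carriage, Stard4 fell in wt and MK2/3-/- BMDM, and Scd2 in both knockouts. Stard4 (NM_133774), a carrier of sterols between membranes, had 10.09, 10.15, 10.79 and 10.13 in wt in medium and 8.25, 7.81 and 8.08 with LPS. In MK2-/- BMDM it had 10.43, 10.02, 10.88 and 11.35 in medium and 9.57, 10.59, 10.48 and 10.39 with LPS. MK2/3-/- cells had 10.25, 9.53 and 10.95 in medium and 7.89, 6.35, 8.89 and 9.71 with LPS. The LPS arrays were separate from medium in wt and overlapped it in both knockouts, in MK2/3-/- by the 1 array at 9.71. Stard4 fell 4.74-fold in wt (adjusted p = 0.00284) and 4.09-fold in MK2/3-/- (0.00470), with -0.41 ± 0.51 in MK2-/- BMDM (0.553). The difference between the MK2-/- and wt responses was 1.83 ± 0.75 and did not pass (adjusted p = 0.624). A dimmer probe of Stard4 turned the sign, with 0.20 in wt (adjusted p = 0.802), 1.27 in MK2-/- (0.0393) and 0.10 in MK2/3-/- BMDM (0.896).

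Scd2 (NM_009128) and Scd1 encode desaturases that make monounsaturated fatty acids. Scd2 gave 10.20, 9.00, 8.89 and 8.99 in wt in medium and 8.99, 5.81 and 7.59 with LPS. MK2-/- cells gave 8.54, 7.93, 8.19 and 9.05 in medium and 3.91, 4.81, 5.00 and 6.17 with LPS, and in MK2/3-/- BMDM 7.96, 8.62 and 8.85 in medium and 2.86, 4.33, 5.88 and 6.92 with LPS. Medium and LPS were separate in both knockouts, whereas in wt the first LPS array lay among the medium arrays. Its LPS signal was well above background in only 3 of 4 MK2-/- and 2 of 4 MK2/3-/- arrays, so the size of its fall there is uncertain. The fitted change was -3.45 ± 0.73 in MK2-/- (adjusted p = 0.000615) and -3.48 ± 0.79 in MK2/3-/- BMDM (0.00109), and the wt change was -1.80 ± 0.79 without a call (0.0737). Scd1 was not called in any genotype.

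Fasn (NM_007988), fatty acid synthase, was dim. In wt it gave 7.31, 7.15, 6.54 and 6.50 in medium and 5.43, 5.49 and 5.61 with LPS, which were separate. For MK2-/- BMDM the values were 5.80, 5.61, 5.95 and 6.29 in medium and 3.43, 3.00, 6.74 and 3.44 with LPS, where replicate 3 with LPS lay above all medium arrays and was the only LPS array of the group well above background. For MK2/3-/- BMDM the values were 6.36, 6.17 and 6.53 in medium and 4.40, 3.85, 5.90 and 5.44 with LPS, without overlap. The change was called in MK2-/- BMDM alone (-1.76 ± 0.59, adjusted p = 0.0195), where 3 of the 4 LPS values are not well above background and the size is therefore uncertain. It was -1.37 ± 0.64 in wt (0.0936) and -1.45 ± 0.64 in MK2/3-/- BMDM (0.0672), and the responses were not shown to differ (adjusted p = 0.942 and 0.994 against wt). The MK2-/- call was lost without replicate 1, 2 or 4 with LPS or replicate 4 in medium.

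**Figure D3:**
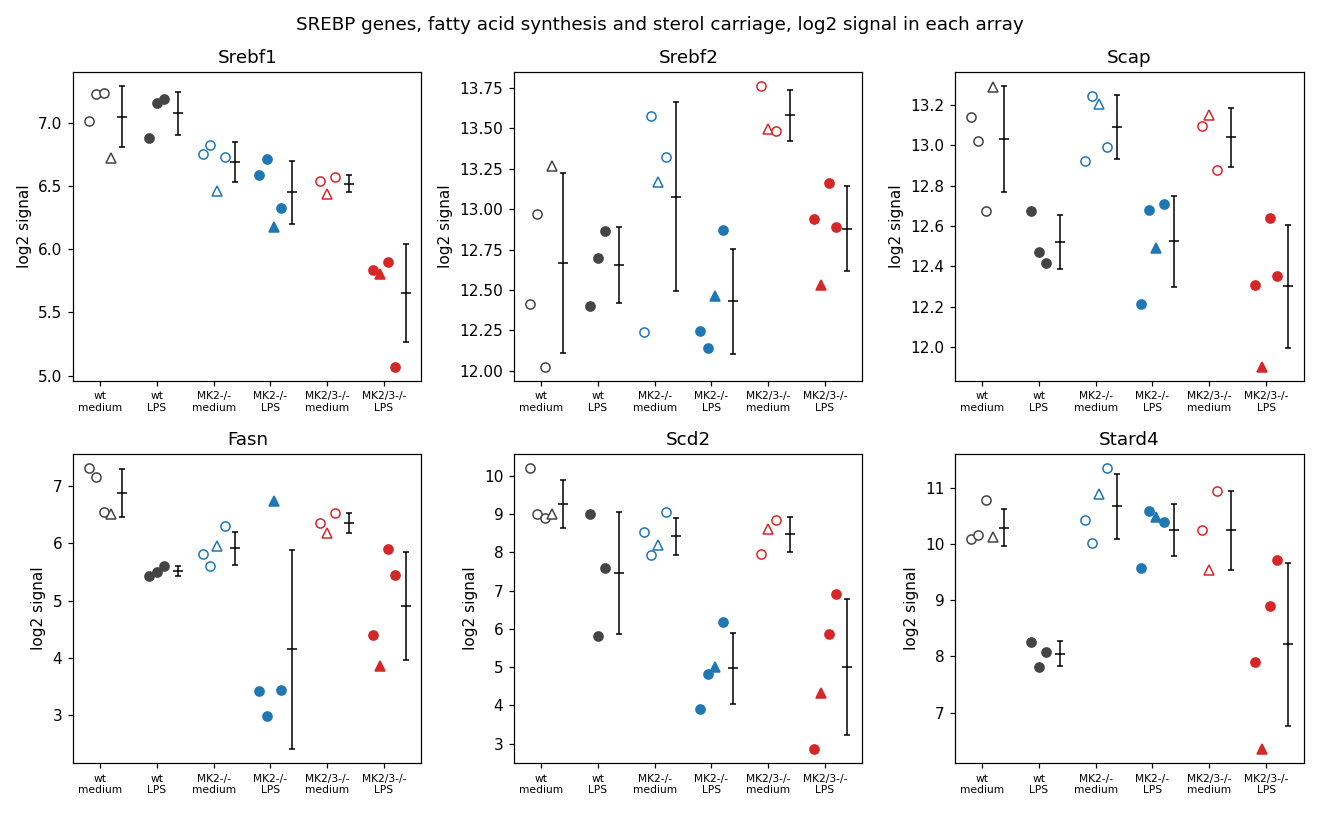
Log2 signal (vertical axes) of Srebf1, Srebf2, Scap, Fasn, Scd2 and Stard4 in each array of the 6 groups (horizontal axes), drawn with open symbols for medium, filled symbols for LPS and triangles for the arrays that stood apart. Black marks are mean and SD. Srebf1 is lowest in MK2/3-/- BMDM with LPS, where no array exceeds 5.90.

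Of the 5 LXR genes none was called higher after LPS, and 2 were called lower in wt, 3 in MK2-/- and 2 in MK2/3-/- BMDM. With 42.2%, 44.7% and 48.3% of all genes called in the same order, these counts were not particular to the LXR genes. Abcg1 (NM_009593), which exports cholesterol to lipoproteins, gave 13.42, 14.31, 13.43 and 12.97 in wt in medium and 10.99, 10.35 and 10.33 with LPS. The MK2-/- cultures gave 13.94, 14.16, 13.37 and 13.41 in medium and 11.46, 12.35, 9.33 and 11.62 with LPS. The MK2/3-/- cultures gave 14.13, 14.83 and 13.16 in medium and 12.79, 13.68, 9.67 and 12.11 with LPS. Wt and MK2-/- groups were separate, and in MK2/3-/- BMDM replicate 2 with LPS reached the medium arrays. Abcg1 fell 7.85-fold in wt (adjusted p = 0.00309), 5.77-fold in MK2-/- (0.00490) and 3.92-fold in MK2/3-/- BMDM (0.0336), and the last call was lost without replicate 1 or 2 in medium or replicate 3 or 4 with LPS of that genotype and with 75th percentile scaling (-1.40, adjusted p = 0.137).

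Abca1 (NM_013454), the exporter that loads lipid-poor apolipoprotein with cholesterol, is shown in full because of its values, which were known when it was chosen. In wt it read 11.26, 12.32, 12.55 and 11.08 in medium and 11.98, 11.70 and 10.09 with LPS. In MK2-/- BMDM it read 11.27, 11.42, 12.06 and 12.69 in medium and 11.55, 12.51, 10.82 and 10.53 with LPS. In MK2/3-/- BMDM it read 11.62, 13.21 and 11.99 in medium and 8.36, 9.96, 7.90 and 8.05 with LPS. The 4 MK2/3-/- arrays with LPS were lower than all other 18 arrays. The fall in MK2/3-/- BMDM was 13.1-fold (adjusted p = 4.47e-05), beside -0.55 ± 0.61 in wt (0.512) and -0.51 ± 0.56 in MK2-/- BMDM (0.504). Against wt the response differed by -3.16 ± 0.86 (adjusted p = 0.0877) and against MK2-/- by -3.20 ± 0.83 (0.227), neither past the threshold.

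Mylip (NM_153789), a ubiquitin ligase induced by LXR that marks lipoprotein receptors for degradation, gave 12.65, 13.32, 12.89 and 13.35 in wt in medium and 10.88, 11.58 and 11.64 with LPS. MK2-/- cells gave 12.73, 13.57, 13.29 and 13.81 in medium and 12.55, 12.55, 11.97 and 12.74 with LPS. MK2/3-/- cells gave 13.55, 13.97 and 13.40 in medium and 14.25, 14.07, 12.97 and 13.81 with LPS. With LPS the arrays stood in the order wt, MK2-/-, MK2/3-/- without overlap. The change after LPS was -1.69 ± 0.32 in wt (adjusted p = 0.000264), -0.90 ± 0.29 in MK2-/- (0.0166) and 0.13 ± 0.32 in MK2/3-/- BMDM (0.765). The MK2-/- call was lost without replicate 3 with LPS or replicate 4 in medium and under 75th percentile scaling. The response in MK2/3-/- minus that in wt was 1.82 ± 0.45, with an adjusted p of 0.0627. A dimmer probe gave 2.52 ± 0.48 for the same difference (adjusted p = 0.0230), was not called in MK2-/- (-0.46, 0.259) and was called higher in MK2/3-/- BMDM after LPS (1.32, 0.00301).

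Nr1h3 and Nr1h2 encode the receptors LXR alpha and LXR beta. Nr1h3 (NM_013839) gave 11.93, 12.98, 11.68 and 11.16 in wt in medium and 10.76, 10.22 and 10.03 with LPS, which were separate. For MK2-/- BMDM the values were 11.89, 12.69, 10.99 and 11.61 in medium and 12.18, 12.54, 9.95 and 10.46 with LPS, and in MK2/3-/- BMDM 12.59, 13.24 and 11.30 in medium and 12.00, 12.52, 8.51 and 10.10 with LPS. The LPS arrays of the knockouts ran from 9.95 to 12.54 and from 8.51 to 12.52 and overlapped the medium arrays. No change was called (adjusted p = 0.123 in wt, 0.622 in MK2-/- and 0.114 in MK2/3-/- BMDM). Nr1h2 (NM_009473) was bright and even, at 13.87, 13.81, 14.11 and 14.01 in wt in medium and 13.79, 13.68 and 13.66 with LPS. It was 14.21, 14.73, 14.20 and 14.14 in medium and 13.88, 13.90, 13.74 and 13.82 with LPS in MK2-/- and 14.07, 13.91 and 14.02 in medium and 13.81, 13.71, 14.02 and 13.28 with LPS in MK2/3-/- BMDM. It was called in MK2-/- BMDM alone (-0.48 ± 0.16, adjusted p = 0.0187), a change that became 0.29 without a call under 75th percentile scaling and was lost without replicate 2 in medium.

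Ch25h (NM_009890), which turns cholesterol into an oxysterol, rose in every genotype. The wt arrays gave 9.14, 10.18, 10.42 and 10.93 in medium and 15.18, 17.02 and 16.89 with LPS. The MK2-/- arrays gave 8.28, 10.14, 9.60 and 10.85 in medium and 15.33, 15.28, 16.50 and 17.31 with LPS. The MK2/3-/- arrays gave 11.02, 10.91 and 10.70 in medium and 16.47, 16.78, 17.29 and 17.28 with LPS. The lowest LPS array was at 15.18 and the highest medium array at 11.02. The rise was 73.2-fold in wt (adjusted p = 1.16e-07), 83.5-fold in MK2-/- (1.44e-08) and 67.7-fold in MK2/3-/- BMDM (7.91e-08), and the responses differed from wt by 0.19 ± 0.81 and -0.11 ± 0.84 (adjusted p = 0.972 and 0.989).

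Soat1 (NM_009230), which joins cholesterol to fatty acids for storage, was low in wt in both conditions. Its wt arrays were 9.62, 10.19, 10.41 and 9.68 in medium and 7.55, 9.13 and 7.78 with LPS. MK2-/- arrays were 11.36, 11.02, 11.21 and 11.58 in medium and 9.83, 9.83, 9.50 and 9.67 with LPS. MK2/3-/- arrays were 11.56, 11.45 and 11.32 in medium and 10.24, 10.11, 9.98 and 9.89 with LPS. In either condition every knockout array lay above every wt array, and in every genotype the LPS arrays lay below the medium arrays. The falls after LPS were -1.82 ± 0.29 in wt (adjusted p = 4.18e-05), -1.58 ± 0.26 in MK2-/- (5.84e-05) and -1.39 ± 0.29 in MK2/3-/- BMDM (0.000466).

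**Figure D4:**
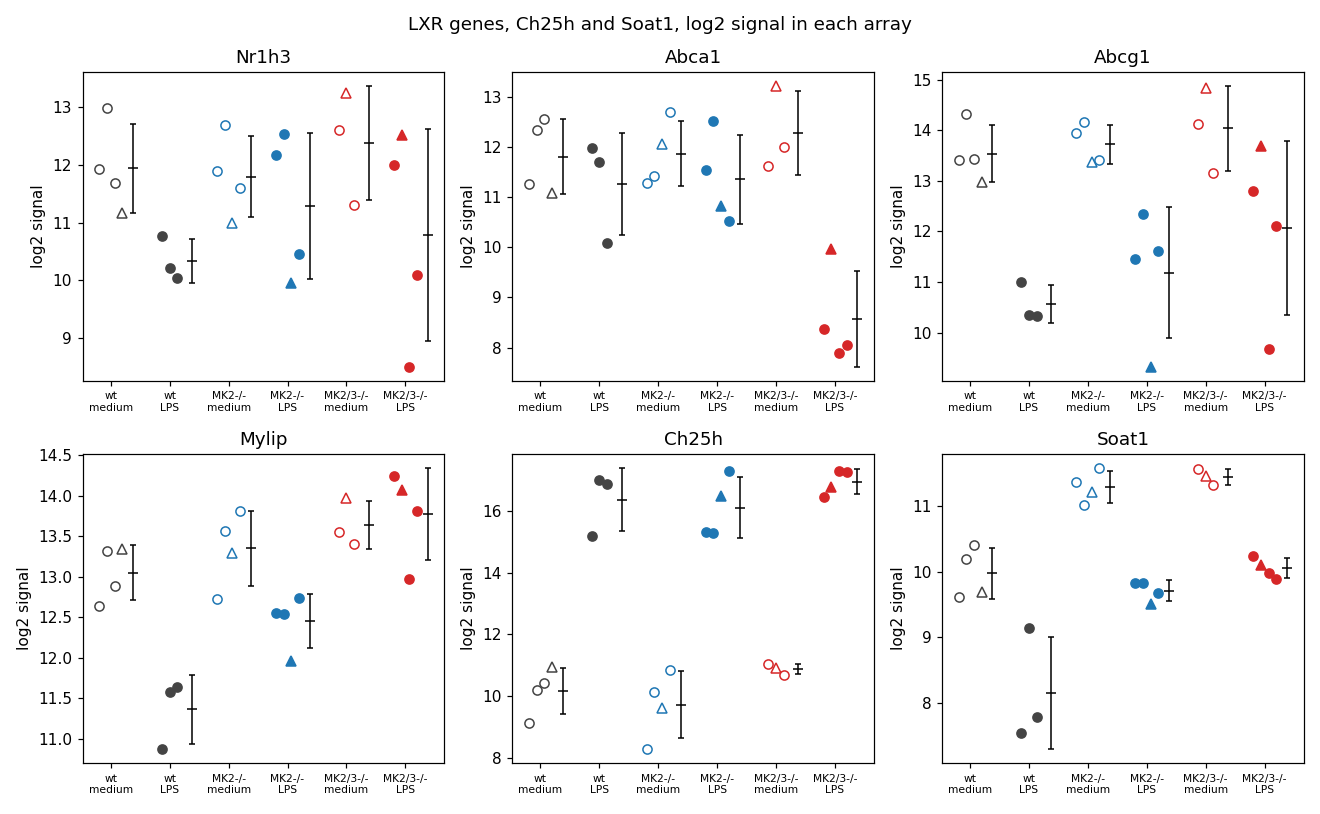
Log2 signal (vertical axes) of Nr1h3, Abca1, Abcg1, Mylip, Ch25h and Soat1 in each array of the 6 groups (horizontal axes), drawn with open symbols for medium, filled symbols for LPS and triangles for the arrays that stood apart. Black marks are mean and SD. The 4 MK2/3-/- LPS arrays of Abca1 lie between 7.90 and 9.96, below every other array.

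Between LPS-treated genotypes, 5 of the 34 genes were called in MK2-/- against wt BMDM, 4 higher and 1 lower. Of all genes 11.6% were called, 1014 higher and 1586 lower. Stard4 was higher by 2.21 ± 0.55 (adjusted p = 0.0176), Soat1 by 1.56 ± 0.29 (0.00393), Mylip by 1.09 ± 0.32 (0.0342) and Hmgcs1 by 1.07 ± 0.30 (0.0286), each with no overlap between the groups. A dimmer probe of Stard4 gave 1.14 and was not called (0.153), whereas a dimmer probe of Mvk was called lower (-1.18, 0.0258). Scd2 was lower by 2.49 (SE 0.79, 0.0474), with overlap and 1 of 4 MK2-/- values not well above background. The call of Scd2 was lost in 14 of the 22 fits that left out 1 array, that of Mylip in 6, that of Hmgcs1 in 5, that of Stard4 in 1 (without replicate 2 of wt) and that of Soat1 in none. Without both MK2-/- arrays of replicate 3 the calls were Stard4, Mylip and Soat1 higher and Fasn lower. None of the MK2-/- LPS values of Fasn left in that fit was well above background, so the size of its difference is uncertain.

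In MK2/3-/- against wt BMDM under LPS 8 genes were called, 2 higher and 6 lower, beside 23.7% of all genes, so that the share was near the background. Over all genes 2155 were called higher and 3133 lower. Mylip was 5.32-fold higher (adjusted p = 8.25e-05) and Soat1 3.74-fold higher (0.000221). Abca1 was 6.45-fold lower (0.00412) and Srebf1 2.68-fold (0.000148). Scd2 was called lower (-2.47 ± 0.79, 0.0296), with 2 of 4 MK2/3-/- values not well above background. Mvk, Acat2 and Insig2 were lower by 0.83, 0.66 and 0.61 on the log2 scale, with overlapping groups. A dimmer probe of Nsdhl was called lower (-2.22, 0.0140), while its brighter probe was not (-0.65, 0.303). The call of Acat2 was lost in 16 of the 22 fits that left out 1 array, and those of Mvk, Insig2 and Scd2 in 4 each. Without both MK2/3-/- arrays of replicate 2 the calls were 2 higher (Mylip and Soat1) and 2 lower (Abca1 and Srebf1).

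MK2/3-/- against MK2-/- BMDM under LPS gave 7 called genes, 1 higher and 6 lower, beside 13.6% of all genes (1731 higher and 1304 lower). Mylip was higher by 1.32 ± 0.29 (adjusted p = 0.00550). Abca1 was lower by 2.78 (SE 0.56, 0.00283) and Stard4 by 2.04 (0.51, 0.0125). Sqle, Fdft1, Mvd and Srebf1 were lower by 1.29, 1.18, 1.01 and 0.80 on the log2 scale. A dimmer probe of Fdft1 gave -0.19 without a call (0.740). The calls of Sqle and Fdft1 were lost in 17 and 11 of the 22 fits that left out 1 array, and those of the other 5 genes in none. In other settings some of these 5 were lost too. Srebf1 was not called with 75th percentile scaling or a 2-fold minimum. With only the groups compared in the model, Srebf1, Mvd and Stard4 were not called. The 18 synthesis enzymes had a median difference of -0.47 here, with 14 of 18 differences negative, 3 of them called. Over all genes tested the median was -0.07, with 12476 of 22346 differences negative. Replicate 2 of MK2/3-/- BMDM with LPS was the lowest array of its group for 16 of the 18 enzymes, and for 4562 of 21293 genes without a missing value. Without both MK2/3-/- arrays of replicate 2 the calls of Sqle and Fdft1 were lost.

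In medium 1 gene was called in each knockout against wt, beside 8.88% of all genes for MK2-/- and 2.02% for MK2/3-/- BMDM. It was Soat1 in both, higher by 1.32 ± 0.26 in MK2-/- (adjusted p = 0.00724) and 1.47 ± 0.29 in MK2/3-/- BMDM (0.0183). Both comparisons share the wt arrays. The call in MK2/3-/- BMDM was lost without replicate 1 of wt in medium or replicate 1 of MK2/3-/- in medium, and without both MK2/3-/- arrays of replicate 2. Between the knockouts in medium limma called none of the 34, where 2.83% of all genes were called. An unadjusted p below 0.05 was reached by 1 of the 34 and by 3355 of all 22346 genes.

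When the change after LPS was compared between genotypes, none of the 34 genes was called in the model without a block. For MK2-/- minus wt limma called 0 of all genes (0%). There 2 members, Msmo1 and Stard4, had an unadjusted p below 0.05, as had 1684 of all 22346 genes. For MK2/3-/- minus wt 0.689% of all genes were called. Srebf1, Abca1 and Mylip had an unadjusted p below 0.05, as had 2543 of all genes. For MK2/3-/- minus MK2-/- 0.0671% of all genes were called. There 5 members (Sqle, Srebf1, Stard4, Abca1 and Mylip) had an unadjusted p below 0.05, as had 1923 of all genes. Mylip lay nearest to a call for MK2/3-/- minus wt. It was called there in several alternative settings, among them both blocks, and without replicate 3 of MK2/3-/- with LPS (adjusted p = 0.0266).

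Many of the enzymes had their lowest value in the same array of MK2/3-/- BMDM. There, replicate 2 was the lowest array for 16 of the 18 synthesis enzymes in medium and for 16 with LPS, with median deviations from the group mean of -0.35 and -0.84. The same arrays were the highest of their group for 4 of the 4 genes Nr1h3, Abca1, Abcg1 and Mylip in medium and for 3 with LPS. Replicate 3 of MK2/3-/- with LPS was the lowest for these 4 genes, by a median of -1.54. Nr1h2, the LXR gene not in this ranking, went the other way. In MK2/3-/- BMDM its highest LPS value was in replicate 3 (14.02) and its lowest medium value in replicate 2 (13.91). Over all genes without a missing value the replicate 2 arrays were the lowest for 7598 of 21293 in medium and 4562 with LPS. Their median deviation over these genes was -0.02 in medium and 0.00 with LPS. The SD between arrays of the synthesis enzymes had a median of 0.71 in MK2/3-/- BMDM with LPS, where all genes had 0.44, and of 0.25 to 0.32 in the other groups.

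**Figure D5:**
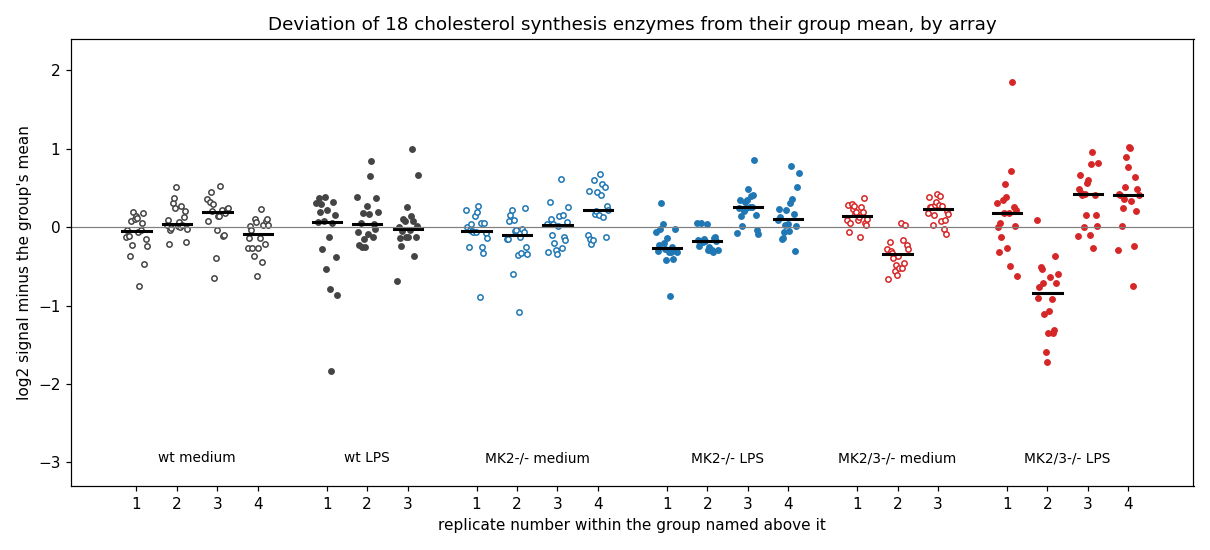
Deviation of the log2 signal of each of the 18 cholesterol synthesis enzymes from its group mean (vertical axis), for each array (horizontal axis, replicate numbers within the 6 groups). Points are enzymes, open for medium and filled for LPS, and the black bar is the median of an array. Replicate 2 of MK2/3-/- BMDM has its median at -0.35 in medium and -0.84 with LPS.

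Of 25 other genes of sterol and fatty acid metabolism, 2 were called higher and 11 lower in wt after LPS, beside 42.2% of all genes. In MK2-/- BMDM 2 were called higher and 12 lower, beside 44.7% of all genes. In MK2/3-/- BMDM 1 was called higher and 11 lower, beside 48.3% of all genes. The split of all genes by direction is given above with the 34 genes. The largest falls in wt were those of Fads1, a fatty acid desaturase, at -3.13 ± 0.39 (adjusted p = 2.79e-06), and of Nceh1, a hydrolase of cholesterol esters, at -3.11 ± 0.26 (2.15e-08). The called rises were those of Rnf145, a ubiquitin ligase that responds to sterols, by 1.19 ± 0.21 (0.000172), and of Ggps1, which makes geranylgeranyl diphosphate, by 0.49 ± 0.15 (0.0155). In MK2/3-/- against wt BMDM under LPS, 2 of the 25 were called higher and 1 lower, beside 23.7% of all genes. Rnf145 differed by 1.08 ± 0.21 (adjusted p = 0.00169), Erlin1 by 0.53 (0.0486) and Tmem97 by -0.64 (0.0190). The median change of the 25 genes after LPS in wt, -0.36, lay below the median of all genes, like that of the 34 genes.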

How the data were processed

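RNA from each culture was labelled with 1 dye and hybridised to an Agilent mouse array, and each array had 62976 spots. The deposited scanner files held the processed spot intensity from Agilent Feature Extraction 11.0.1.1, which is background-corrected by that software. The authors normalised by quantiles and set each probe relative to its median, and their deposited value table, on a log2 scale, was used as an alternative. The study's methods name 4 independent experiments.

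From the scanner files, control spots and outlier spots were left out, spots of a probe were averaged, and intensities were quantile normalised over 22 arrays on a log2 scale. A probe was kept if its signal was well above background on 3 or more arrays (28054 probes), and the brightest probe of each gene was used (22346 genes). All 6 groups entered 1 model in limma 3.58.1 (R 4.3.3), with 12 comparisons, no block, and Benjamini-Hochberg adjustment over all genes. The fit was tested on simulated data. Columns of other samples numbered 0.

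The members and lists were chosen with earlier results of these data known. Given array by array were, in each role group, the 3 genes with the largest change after LPS in wt, and Srebf1, Srebf2, Nr1h2 and Nr1h3, to which Abca1 was added after its values were seen. Alternatives were 75th percentile scaling, normexp correction (offset 50), no filter, another probe, array weights, only the groups compared, a 2-fold minimum, the methods' t-test, blocks, and leaving out arrays. The number of arrays limits the precision.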

Additional observations from a re-analysis of the deposited data

Results flagged for a closer look

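In 135 groups of 4 arrays, 1 array stood far from the rest in 6, where chance gives about 1 in 20. The measure is the gap to the nearest array divided by the range of the group. Sqle was low in replicate 2 of MK2/3-/- BMDM with LPS (0.8465), the array that was lowest for 16 of 18 synthesis enzymes. Srebf1 was low in replicate 4 of the same group (0.8843). Fasn was high in replicate 3 of MK2-/- BMDM with LPS (0.8813), an array without Ddx3y signal well above background, and its part in that value was not tested. Scd2 was high in replicate 1 (0.9158) and Stard4 in replicate 3 (0.9113) of wt BMDM in medium. Nr1h2 was high in replicate 2 of MK2-/- BMDM in medium (0.8877), and without this array the call of Nr1h2 after LPS was lost.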

How the results depend on the processing

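Of 70 calls of members over the 12 comparisons, 27 were kept in every setting run and 49 whenever 1 array was left out. Leaving out 1 array gave 11 to 15 called members after LPS in wt, 14 to 18 in MK2-/- and 17 to 20 in MK2/3-/- BMDM. Under LPS it gave 2 to 6 for MK2-/- against wt, 4 to 9 for MK2/3-/- against wt and 5 to 10 for MK2/3-/- against MK2-/-. In medium it gave 1, 0 to 1 and 0 in the same order, and for the differences of the response 0, 0 to 1 and 0.

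With only the groups compared in the model, the calls under LPS were 2, 4 and 2 in the same order. The methods' t-test without adjustment gave 12 and 5 for the knockouts against wt under LPS, and 6, 5 and 3 in medium. After Benjamini-Hochberg adjustment it gave 10 after LPS in MK2/3-/- BMDM, 1, 0 and 0 under LPS, and 0 for MK2/3-/- against wt in medium. Array weights gave 9 for MK2-/- against wt under LPS and 2 for MK2/3-/- against wt in medium, where 75th percentile scaling also gave 2. A 2-fold minimum gave 5 for MK2/3-/- against wt under LPS. Without both MK2/3-/- arrays of replicate 2, an alternative chosen after seeing the data, that count was 4, and the counts in medium were 2 for MK2-/- and 0 for MK2/3-/- against wt. The cause of these shifts was not tested.

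For the response of MK2/3-/- minus wt, Mylip was called with normexp correction (1 member, adjusted p = 0.0443), with the probe of the largest change in wt (1 member, 0.0254) and with array weights (2 members, 0.0120, with Srebf1 at 0.0361). With the replicate number as a block 1 member was called (Mylip, 0.0352), and with the array letter as a block also 1 (0.0292). The blocks moved no other count of called members by over 1.5 times. Over all genes the calls for this difference rose from 154 to 354 and 388. Of 10 pairs of arrays with the same letter all 10 shared the age of the mice and 7 had deviations correlated above 0.1, against 5 and 6 of 30 pairs with different letters. Both MK2-/- arrays without Ddx3y had the same number. Apart from the letter and the age no label ties the arrays, and the lowest same-letter pair was at -0.085. The pairing was therefore not taken as established. The consensus correlations were 0.118 and 0.144.

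The direction turned for Stard4 with the probe of the largest change in wt, to 0.20 in wt and 0.10 in MK2/3-/- BMDM, and for Nr1h2 in MK2-/- BMDM with 75th percentile scaling, to 0.29. Dim signals limit Fasn, Scd1 and Scd2 under LPS.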
